A study of Mus musculus with 18 samples.

Results

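The Hox cluster genes of mouse were followed in 2 embryonic stem (ES) cell lines over 8 days without LIF, the cytokine that holds mouse ES cells in the undifferentiated state. Members were all rows of the authors' value table whose name was Hox, a cluster letter from a to d and a number. This gave 39 genes out of 30848 rows, with 11 in the Hoxa cluster (chromosome 6), 10 in Hoxb (chromosome 11), 9 in Hoxc (chromosome 15) and 9 in Hoxd (chromosome 2). Total RNA of the line AB2.2, an ES line much used for gene targeting, and of the line PL2F8, about which the labels give no more than the name, was hybridised to Illumina mouse bead arrays. The 10 groups were each line at day 0 of LIF removal, and at days 2, 4, 6 and 8 after withdrawal, with 2 arrays a group through day 6 and 1 array a group at day 8. The labels name only the line and the days since LIF removal, and give no genotype, feeder layer or other agent. Nothing in the labels says that the 2 arrays of a group came from separate cultures, so p-values measure the spread between these arrays, which may be technical.

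Hox genes encode homeodomain transcription factors that give cells of the embryo their position along the head to tail axis. Genes at the 3′ end of each cluster (low numbers) are switched on first and most anteriorly, and genes at the 5′ end (high numbers) last and most posteriorly. In ES cells the clusters are known to be held silent by Polycomb proteins, and retinoic acid, Wnt and FGF signals and the Cdx factors are known to open them. Members with the same number in different clusters are paralogs. Here paralog groups 1 to 4 are called anterior (12 genes), groups 5 to 8 central (11) and groups 9 to 13 posterior (16).

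The promoter windows of 4 members are shown because their transcripts moved in the results and RefSeq (GRCm38.p6) gave a window of 250 bases before to 50 after the start. Hoxb4 and Hoxd4 are paralogs that rose in PL2F8, Hoxd9 rose in AB2.2 at day 8, and Hoxa7 fell at day 2. Windows were found for 22 of the 39 members, 24 windows in all. Capitals mark matches, on either strand, to TTTATG (a Cdx site), AGGTCA (a retinoic acid receptor half-site), TGATNNAT (a Hox and Pbx site) or TATAAA (the TATA box), and none of the marked matches overlap.
Hoxb4: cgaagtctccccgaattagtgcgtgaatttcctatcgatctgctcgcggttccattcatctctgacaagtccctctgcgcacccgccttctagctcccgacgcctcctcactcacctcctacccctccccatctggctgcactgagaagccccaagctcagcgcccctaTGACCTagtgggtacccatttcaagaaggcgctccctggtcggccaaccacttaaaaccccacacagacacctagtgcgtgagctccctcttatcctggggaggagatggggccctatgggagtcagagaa
Hoxd4: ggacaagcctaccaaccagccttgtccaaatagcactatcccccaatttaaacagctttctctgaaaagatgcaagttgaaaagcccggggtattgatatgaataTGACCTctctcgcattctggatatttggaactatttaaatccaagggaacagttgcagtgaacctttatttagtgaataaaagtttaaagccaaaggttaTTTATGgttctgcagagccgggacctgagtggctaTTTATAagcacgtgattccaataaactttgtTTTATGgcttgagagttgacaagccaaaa
Hoxd9: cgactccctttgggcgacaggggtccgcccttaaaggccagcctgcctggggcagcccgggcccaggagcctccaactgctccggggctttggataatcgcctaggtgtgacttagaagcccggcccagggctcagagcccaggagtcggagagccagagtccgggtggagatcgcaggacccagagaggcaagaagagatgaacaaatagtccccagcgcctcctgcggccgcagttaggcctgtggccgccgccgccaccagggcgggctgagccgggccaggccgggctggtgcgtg
Hoxa7: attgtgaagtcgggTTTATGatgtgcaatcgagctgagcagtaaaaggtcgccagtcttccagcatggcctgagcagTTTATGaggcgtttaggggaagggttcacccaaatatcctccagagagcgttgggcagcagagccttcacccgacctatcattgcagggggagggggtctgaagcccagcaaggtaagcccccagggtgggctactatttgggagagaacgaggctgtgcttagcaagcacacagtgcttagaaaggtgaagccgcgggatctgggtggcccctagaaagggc

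The Hoxb4 window (chr11:96318017-96318316 on the plus strand) held the half-site once, on the reverse strand from base 170 of the window. The Hoxd4 window (chr2:74721728-74722027 on the plus strand) held the Cdx letters from bases 206 and 272, the half-site from base 106 and the TATA letters from base 241, the last 2 on the reverse strand. None of the 4 motifs was in the Hoxd9 window (chr2:74697513-74697812 on the plus strand), and the Hoxa7 window (chr6:52218524-52218823 on the minus strand) held the Cdx letters from bases 15 and 78. Across all 32851 RefSeq windows the Cdx letters were in 11.9%, the half-site in 16.3%, the Hox and Pbx letters in 8.85% and the TATA letters in 13.6%. Among the 24 member windows the counts were 5, 7, 4 and 4. The 2 paralog 4 windows differed in composition, with 14 CpG pairs and 58% G or C in Hoxb4 against 4 and 39.7% in Hoxd4. Hoxd9 had 20 CpG pairs and Hoxa7 had 9, where the median over all windows was 7 and over member windows 14.5. A match of letters is a description of the sequence and says nothing of binding.

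Values below are log2 normalized intensities (the level of a gene on an array), made from the deposited signal as described under the processing. A gene was called detected on an array when its detection p-value, the share of negative control probes that were as bright, was below 0.05. By that construction 5% of probes without a transcript pass. ES cell markers were present in both lines at day 0, where all 8 of the markers listed were detected on every array. Mean signal lay between 284 and 493 on the AB2.2 arrays and the PL2F8 arrays of days 0 to 4, with 41.9% to 45% of probes detected. The PL2F8 arrays stood apart later, with mean signals of 137 and 135 at day 6 and 60.1 at day 8, where 20.9% of probes were detected. Quantile normalization gives all arrays the same distribution and so stretches these dim arrays. Scaling each array by its median instead moved the median of all genes by -1.08 at day 6, by -2.04 at day 8 by -0.24 at day 4 and by -0.12 at day 2 in PL2F8, and by 0.17 at day 6 in AB2.2. The share of called genes that were higher then went from 47.0% to 8.67% at PL2F8 day 6, from 43.6% to 1.23% at its day 8, from 51.6% to 23.5% at its day 4 and from 48.0% to 27.1% at its day 2. In AB2.2 it went from 50.3% to 39.1% at day 2, from 51.7% to 69.8% at day 6 and from 49.9% to 63.4% at day 8, and between the lines at day 0 from 52.3% to 75.3%. Hox counts are therefore given under both scalings, except for the day by day differences between the lines. Folds given as "at least" were taken after quantile normalization and bound the change under that scaling only. On the dim arrays they can exceed the change found with median scaling.

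Most Hox transcripts were at or near the detection limit. Of the 702 values of 39 members on 18 arrays 182 (25.9%) were detected, and a detected member had a median signal of 1.14 times the limit of its array. Only 11 detected values, in 9 members, passed 1.5 times the limit, and 8 of these 11 were on the AB2.2 array of day 8. The highest were Hoxb2 at 3.17, Hoxb5 at 2.44 and Hoxc9 at 2.17 times the limit, all on that array. In bulk RNA, few cells with much transcript and many cells with little cannot be told apart.

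**Figure D1:**
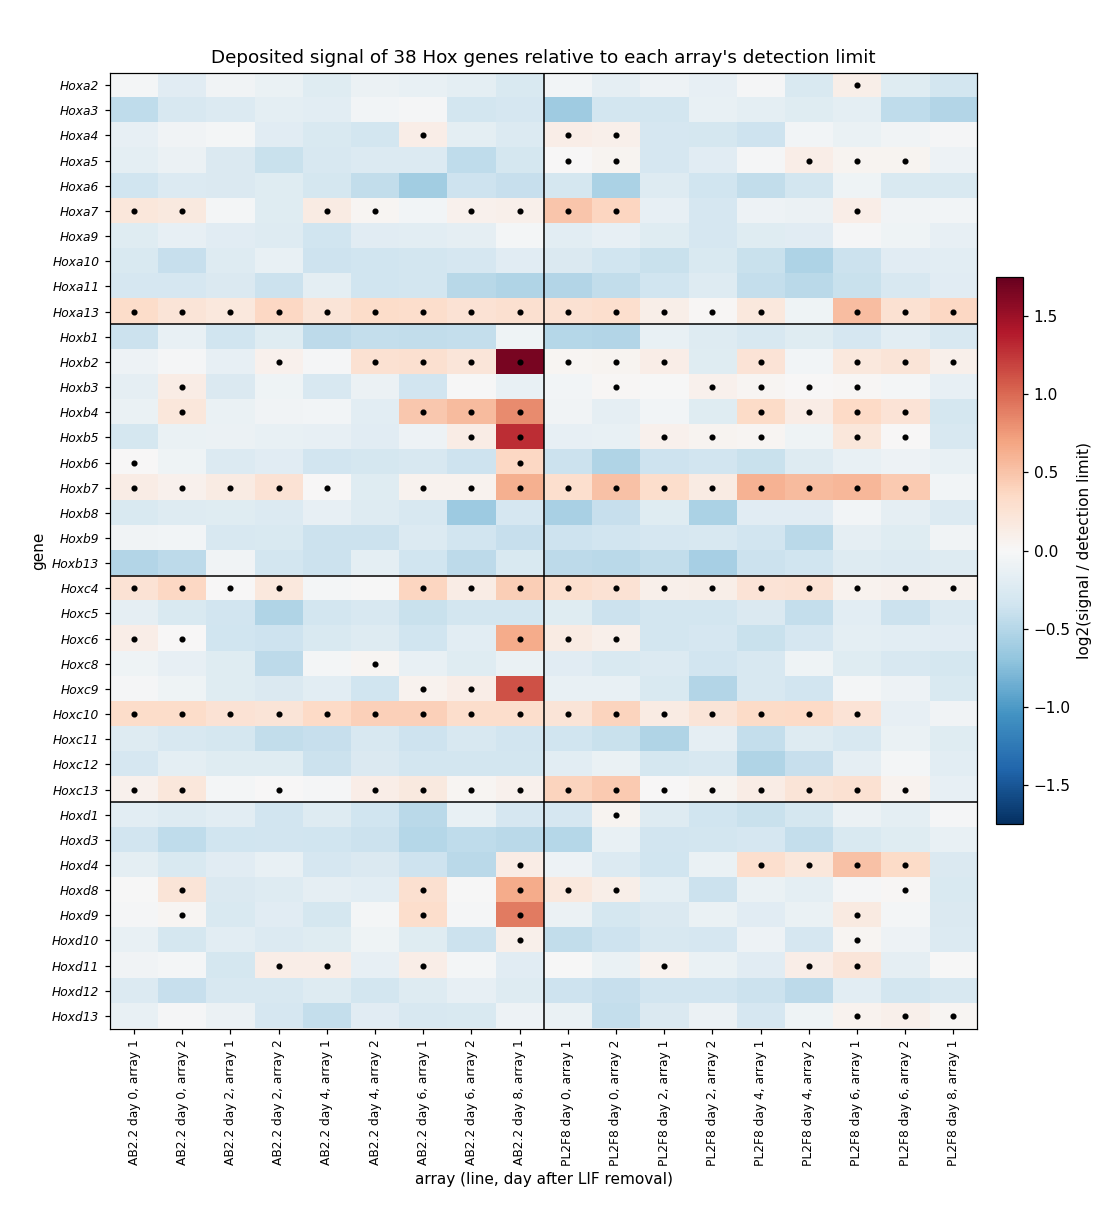
Deposited signal of 38 of the 39 Hox genes (rows, grouped by cluster and ordered by paralog number) on the 18 arrays (columns, by line and day), as log2 of the signal over the array's detection limit. Black dots mark detection, lines separate clusters and cell lines, and the darkest cells are Hoxb2, Hoxb5 and Hoxc9 on the AB2.2 array of day 8.

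Fewer members were detected at day 2 than at day 0 in both lines, and more again at day 6. In AB2.2, 9 and 12 of the 39 members were detected at day 0, 5 and 7 at day 2, 5 and 6 at day 4, 13 and 11 at day 6 and 17 at day 8. In PL2F8 the counts were 12 and 14 at day 0, 9 and 7 at day 2, 11 and 10 at day 4, 18 and 12 at day 6 and 4 on the dim array of day 8. By cluster, the AB2.2 array of day 8 detected 3 of 11 Hoxa, 5 of 10 Hoxb, 5 of 9 Hoxc and 4 of 9 Hoxd genes, and the array with the most in PL2F8, at day 6, detected 5, 5, 3 and 5. No array of either line detected Hoxa3, Hoxa6, Hoxa9, Hoxa10, Hoxa11, Hoxb1, Hoxb8, Hoxb9, Hoxb13, Hoxc5, Hoxc11, Hoxc12, Hoxd3 or Hoxd12, 14 members in all. Of these 14, 8 are posterior (of 16), 3 central (of 11) and 3 anterior (of 12). Hoxa2, Hoxc8 and Hoxd1 were each detected on 1 array. The other 22 were detected on at least 2 arrays and were tested (5 of Hoxa, 6 of Hoxb, 5 of Hoxc and 6 of Hoxd, or 7 anterior, 7 central and 8 posterior). Passing that filter depends on the levels themselves, so counts over the 22 describe only these. Hoxc9, Hoxd4, Hoxd10 and Hoxd13 were detected only on arrays of day 4 or later, and entered the tested set through those arrays. Their later rises and p-values are therefore a description and no separate support. Hoxa4 was detected on both PL2F8 arrays of day 0 and 1 AB2.2 array of day 6. Hoxc6 was detected on the 4 arrays of day 0 and the AB2.2 array of day 8. Hoxb6 was detected on 1 AB2.2 array of day 0 and that of day 8. The falls of Hoxa4, Hoxc6 and Hoxb6 from day 0, and the Hoxb6 rise at day 8 and line difference, are likewise a description.

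**Figure D2:**
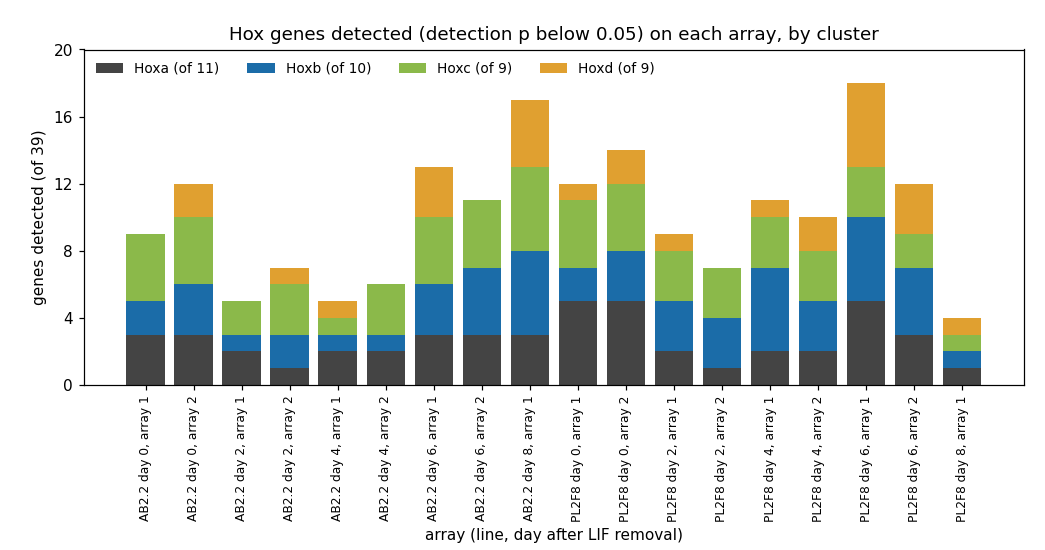
Number of the 39 Hox genes detected on each array (vertical axis, genes), stacked by cluster, for the 18 arrays on the horizontal axis. The count falls from 9 and 12 to 5 and 6 by day 4 in AB2.2 and reaches 17 at day 8, and the PL2F8 array of day 8 has 4.

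The first change after LIF removal was a fall. At day 2, 7 of the 22 tested members were lower and 0 higher in AB2.2, where 34.8% of all 16108 genes were called (17.3% lower), and 7 were lower and 0 higher in PL2F8, where 36.4% were called (19% lower). The 7 of 22 is close to the share of all genes called in either direction and above the share called lower. With median scaling the counts were 6 and 8, all lower, where 21.3% and 29.7% of all genes were called lower. Calls here are limma moderated tests adjusted by Benjamini and Hochberg over all 16108 genes, with a threshold of 0.05, and values after ± are standard errors of the fit. The median change over the 22 members was -0.26 in AB2.2 and -0.16 in PL2F8, against -0.0021 and 0.00099 over all genes. Hoxa7, Hoxc6 and Hoxd8 were among those lower in both lines.

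Hoxa7, a central gene that helps pattern thoracic vertebrae, measured 5.21 and 5.14 at day 0, 4.69 and 4.41 at day 2, 5.01 and 4.79 at day 4, 4.61 and 4.84 at day 6 and 4.86 at day 8 in AB2.2. Hoxa7 in PL2F8 measured 5.49 and 5.26 at day 0, 4.53 and 4.38 at day 2, 4.62 and 4.61 at day 4, 5.40 and 4.72 at day 6 and 6.15 at day 8. It was detected on all 4 arrays of day 0 and on none of day 2, so that the fall was at least 1.36-fold in AB2.2 (adjusted p = 0.017, limma) and at least 1.54-fold in PL2F8 (adjusted p = 0.0017). In PL2F8 it was still undetected at day 4 (at least 1.52-fold lower, adjusted p = 0.0038), while in AB2.2 it was detected on both day 4 arrays.

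Hoxc6, a central gene of the thoracic region, measured 5.04 and 4.78 at day 0, 4.31 and 4.29 at day 2, 4.41 and 4.44 at day 4, 4.34 and 4.49 at day 6 and 5.62 at day 8 in AB2.2. Hoxc6 in PL2F8 measured 4.96 and 4.84 at day 0, 4.35 and 4.38 at day 2, 4.30 and 4.41 at day 4, 4.41 and 4.40 at day 6 and 4.38 at day 8. The gene was detected on all 4 arrays of day 0, on none from day 2 to day 6 in either line, and again only on the AB2.2 array of day 8. Its fall was at least 1.13-fold at day 2 in AB2.2 (adjusted p = 0.00025, limma) and at least 1.11-fold in PL2F8 (adjusted p = 0.00068). Without the day 0 arrays Hoxc6 would not have passed the filter, so these p-values are a description and no separate support.

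Hoxd8, a central Hoxd gene, measured 4.79 and 5.24 at day 0, 4.38 and 4.39 at day 2, 4.54 and 4.48 at day 4, 5.07 and 4.72 at day 6 and 5.62 at day 8 in AB2.2. Hoxd8 in PL2F8 measured 5.03 and 4.87 at day 0, 4.50 and 4.32 at day 2, 4.57 and 4.52 at day 4, 4.78 and 5.13 at day 6 and 4.29 at day 8. It was detected on 3 of the 4 arrays of day 0 and on none of days 2 and 4, a fall at day 2 of at least 1.21-fold in AB2.2 (adjusted p = 0.0081, limma) and at least 1.15-fold in PL2F8 (adjusted p = 0.018). Hoxc4, a paralog 4 gene, measured 5.30 and 5.46 at day 0, 4.79 and 5.08 at day 2, 4.72 and 4.72 at day 4, 5.20 and 4.91 at day 6 and 5.35 at day 8 in AB2.2. Hoxc4 in PL2F8 measured 5.19 and 5.09 at day 0, 4.88 and 4.94 at day 2, 5.17 and 5.25 at day 4, 5.15 and 5.41 at day 6 and 7.46 at day 8. In AB2.2 Hoxc4 fell by 0.45 at day 2 (± 0.12, adjusted p = 0.013) and was undetected at day 4 (at least 1.54-fold lower, adjusted p = 0.00061), while in PL2F8 its day 2 change was -0.23 (adjusted p = 0.17).

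In PL2F8 at day 2 the anterior gene Hoxa4, the central gene Hoxa5 and the posterior gene Hoxc13 were also lower. Hoxa4 in PL2F8 measured 4.91 and 4.84 at day 0, 4.37 and 4.38 at day 2, 4.32 and 4.70 at day 4, 4.50 and 4.74 at day 6 and 6.58 at day 8, and it was detected there on the day 0 arrays only. Without those arrays Hoxa4 would not have passed the filter, so its fall is a description and no separate support. Hoxa4 in AB2.2 measured 4.52 and 4.64 at day 0, 4.70 and 4.41 at day 2, 4.41 and 4.36 at day 4, 4.83 and 4.50 at day 6 and 4.42 at day 8. Hoxc13, known in mouse for its role in hair, measured 5.35 and 5.37 at day 0, 4.75 and 4.84 at day 2, 4.99 and 5.18 at day 4, 5.94 and 5.34 at day 6 and 4.62 at day 8 in PL2F8 and fell by 0.57 at day 2 (± 0.16, adjusted p = 0.013, limma). Hoxc13 in AB2.2 measured 4.95 and 5.19 at day 0, 4.71 and 4.72 at day 2, 4.74 and 4.93 at day 4, 4.91 and 4.78 at day 6 and 4.83 at day 8, with no call at any day. Hoxb6 and Hoxc9 were lower at day 2 in AB2.2 from levels detected on 1 array and on none of day 0. By day 4, 7 members were lower and 0 higher in AB2.2 (51% of all genes called, 23.6% lower), and with median scaling 7 were lower too (19.6% of all genes lower). With quantile normalization Hoxb7 was among them, where it fell by 0.37 (± 0.12, adjusted p = 0.024).

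Several of these calls ended when 1 array was left out. Without AB2.2 day 2 array 2 the calls at AB2.2 day 2 ended for Hoxa7 (-0.49), Hoxb6 (-0.32) and Hoxc9 (-0.26), and without day 2 array 1 for Hoxb6 (-0.30), Hoxc4 (-0.31) and Hoxc9 (-0.32). Without AB2.2 day 0 array 1 they ended for Hoxa7 (-0.59), Hoxb6 (-0.22) and Hoxc9 (-0.23), and without day 0 array 2 for Hoxa7 (-0.67), Hoxc4 (-0.37) and Hoxd8 (-0.40). In PL2F8 at day 2, Hoxa4 lost its call without any 1 of the 4 arrays compared (-0.54 to -0.47). Hoxa5 lost it without either day 0 array or day 2 array 1 (-0.37, -0.32 and -0.29), as did Hoxc13 (-0.58, -0.56 and -0.53). Hoxd8 lost it there without day 0 array 1 (-0.46) or day 2 array 2 (-0.45). At day 4 in AB2.2, Hoxd8 lost it without day 0 array 2 (-0.28) or either day 4 array (-0.53 and -0.47). Hoxb7 and Hoxc9 did so without day 0 array 1 (-0.31 and -0.21) or day 4 array 2 (-0.21 and -0.19). The calls of Hoxc6 in both lines at day 2, and of Hoxa7 in PL2F8, held in each of the 16 fits that left out 1 array.

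Fibroblast markers moved at the same time as these falls. Of 15 such genes 10 were measurable, and at day 2 3 were higher and 4 lower in AB2.2, and 2 higher and 8 lower in PL2F8. Their summed normalized intensity went from 2328 and 2392 to 1898 and 1902 in AB2.2 and from 2968 and 3006 to 2137 and 2178 in PL2F8. Timp1, the brightest of the 10 at day 0 in both lines and so the heaviest in the sum, fell by 1.71 and 1.53. Col1a1, detected at day 0 on all arrays, was undetected at day 2 in both lines. Fbln1 moved the other way, from 8.96 and 8.93 to 9.60 and 9.55 in AB2.2 and from 9.29 and 9.29 to 9.67 and 9.58 in PL2F8. The median change of the 10 was -0.23 in AB2.2 and -0.70 in PL2F8. Col1a2, Col3a1, Lum, Postn and Prrx1 did not pass the detection filter. The part of such cells in the Hox falls was not tested.

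The highest Hox signals came on the AB2.2 array of day 8. Of the 22 members 11 were higher and 0 lower than at day 0, where 48.5% of all genes were called (24.2% higher), and the count was the same with median scaling (30.6% of all genes higher). Of the 11, 4 rose at least 2-fold, where 8.16% of all genes did, and with median scaling 6 did, against 12.7% of all genes. The 11 were Hoxb2, Hoxb4, Hoxb5, Hoxb6 and Hoxb7, Hoxc6 and Hoxc9, and Hoxd4, Hoxd8, Hoxd9 and Hoxd10, and all were detected on that array. The group had 1 array, so the test lends it the spread of the other groups.

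Hoxb2, an anterior gene of the hindbrain and facial motor neurons, measured 4.61 and 4.75 at day 0, 4.51 and 4.84 at day 2, 4.74 and 5.18 at day 4, 5.06 and 5.05 at day 6 and 6.80 at day 8 in AB2.2. Its deposited signal at day 8 was 199, against 66.5 and 64.7 at day 0, when it was not detected. The rise was at least 4.04-fold (2.12 ± 0.25, adjusted p = 1.4e-05, limma). Hoxb2 was already detected on 1 day 2 and 1 day 4 array and on both day 6 arrays, where its change of 0.38 did not pass the threshold (adjusted p = 0.14).

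Hoxb5, a central gene of the neck and shoulder region, measured 4.34 and 4.54 at day 0, 4.57 and 4.51 at day 2, 4.55 and 4.47 at day 4, 4.58 and 4.93 at day 6 and 6.39 at day 8 in AB2.2, with a deposited signal of 154 at day 8. Undetected at day 0, it was at least 3.05-fold higher at day 8 (1.95 ± 0.21, adjusted p = 8.3e-06). Hoxc9, a posterior gene active in thoracic spinal cord, measured 4.75 and 4.63 at day 0, 4.42 and 4.36 at day 2, 4.50 and 4.33 at day 4, 4.77 and 4.91 at day 6 and 6.20 at day 8 in AB2.2. It was detected on both day 6 arrays and was at least 2.67-fold higher at day 8 (1.51 ± 0.11, adjusted p = 1.6e-07). Both genes stood above every earlier array of their line. Hoxc9 in PL2F8 measured 4.54 and 4.54 at day 0, 4.39 and 4.25 at day 2, 4.38 and 4.37 at day 4, 4.75 and 4.66 at day 6 and 4.30 at day 8. No PL2F8 array detected Hoxc9, and it was not called there at any day.

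Hoxb4, an anterior gene also known for expanding blood stem cells, measured 4.57 and 5.18 at day 0, 4.56 and 4.60 at day 2, 4.69 and 4.48 at day 4, 5.32 and 5.53 at day 6 and 5.85 at day 8 in AB2.2. It was the single member higher at day 6 in AB2.2 (0.55 ± 0.18, adjusted p = 0.018), when 4 were lower and 55% of all genes were called (28.4% higher and 26.6% lower). That call ended without day 0 array 1 (0.24) or day 6 array 2 (0.45), while its rise at day 8 of 0.98 ± 0.22 (adjusted p = 0.0022) held without any 1 array. With median scaling 3 members were higher and 3 lower at day 6 (40% of all genes higher and 17.3% lower), and the 3 higher were Hoxb2 (0.58), Hoxb5 (0.37) and Hoxb4 (0.85). With quantile normalization, Hoxb6, Hoxc4 and Hoxc6 were among the 4 lower at day 6. Hoxc4 (-0.32) lost its call in 10 of 16 fits, at -0.32 to -0.18.

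Hoxd9, a posterior gene of the limb and lumbar region, was detected on 1 array of day 0, 1 of day 6 and the day 8 array of AB2.2, where it measured 5.95 against 4.75 and 4.84 at day 0 (1.15 ± 0.25, adjusted p = 0.0018). Its other probe moved the same way, from 4.48 and 4.61 to 5.63. Hoxc6 at day 8 was 0.71 ± 0.11 above day 0 and Hoxb7 0.60 ± 0.15. The rises of the other members were 0.61 for Hoxd8, 0.53 for Hoxb6, 0.50 for Hoxd4 and 0.41 for Hoxd10. Hoxd8 lost its call without AB2.2 day 0 array 1 (0.38), and Hoxd10 in 11 of 16 fits (at 0.30 to 0.41), where the other 9 kept theirs in all 16.

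No Hoxa gene was called at AB2.2 day 8. The 5 tested Hoxa members had a median change of -0.16, against 0.79 for the 6 of Hoxb, -0.03 for the 5 of Hoxc, 0.45 for the 6 of Hoxd and -0.02 for all genes. The calls were 0 of 5 for Hoxa, 5 of 6 for Hoxb, 2 of 5 for Hoxc and 4 of 6 for Hoxd. By position, 3 of 7 anterior, 5 of 7 central and 3 of 8 posterior members were higher, with median changes of 0.11, 0.60 and -0.12. The posterior members called were of groups 9 and 10 (Hoxc9, Hoxd9 and Hoxd10), and Hoxa13, Hoxc13, Hoxd11 and Hoxd13 were not called, nor was Hoxc10. The Hoxc10 level on the AB2.2 arrays, by the probe used for the gene, stayed between 5.15 and 5.43 on all 9, detected on each. Its other probe was detected on 1 array of the series and read 4.26 to 4.55 on the AB2.2 arrays. Hoxc10 is a posterior gene of lumbar motor neurons, and Hoxc10 and Hoxb3 were the 2 tested members with no call in any comparison with quantile normalization. With median scaling Hoxc10 was lower at PL2F8 day 6 (-0.51, adjusted p = 0.0042, limma) and day 8 (-0.67, adjusted p = 0.0022).

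**Figure D3:**
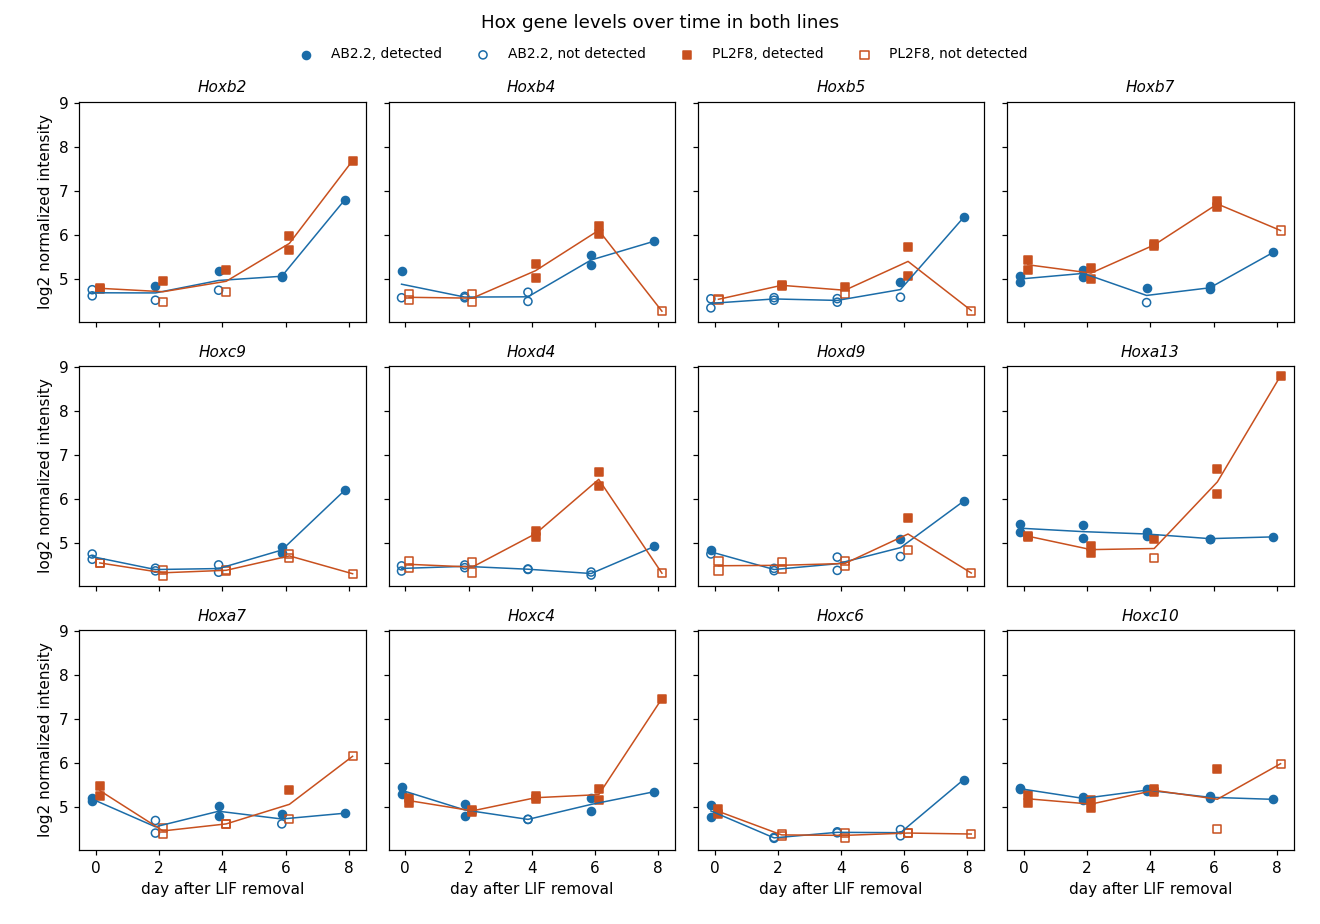
Level (log2 normalized intensity) of 12 Hox genes against the day after LIF removal, with 1 point per array, lines through the group means, circles for AB2.2, squares for PL2F8 and open symbols where the gene was not detected. Hoxb2, Hoxb5 and Hoxc9 reach their AB2.2 maximum at day 8, and Hoxd4 rises at days 4 and 6 in PL2F8 while its AB2.2 level is at most 4.50 through day 6.

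In PL2F8 the rise began at day 4 and took in the paralogs Hoxb4 and Hoxd4 and the central gene Hoxb7. Hoxd4, an anterior gene of the posterior hindbrain and neck vertebrae, measured 4.59 and 4.43 at day 0, 4.33 and 4.57 at day 2, 5.27 and 5.14 at day 4, 6.60 and 6.28 at day 6 and 4.31 at day 8 in PL2F8. Both lines were undetected at day 0, and in PL2F8 all 4 arrays of days 4 and 6 detected it. With quantile normalization Hoxd4 in PL2F8 was at least 1.40-fold higher at day 4 (0.70 ± 0.11, adjusted p = 0.00024, limma) and at least 3.30-fold higher at day 6 (1.93 ± 0.11, adjusted p = 1.4e-08). Hoxd4 in AB2.2 measured 4.48 and 4.36 at day 0, 4.44 and 4.50 at day 2, 4.39 and 4.40 at day 4, 4.34 and 4.27 at day 6 and 4.92 at day 8, and only its day 8 array detected it. On the scale of the deposited signal, Hoxd4 in PL2F8 went from 56.1 and 50.9 at day 0, below the limits of both arrays (59.9), to 64.0 and 58.7 at day 6, above limits that had fallen to 44.9 and 46.7. With median scaling its changes were 0.71 at day 4 and 0.95 at day 6, which is 0.96 and 2.03 above the median gene. The change of 0.95 is less than 2-fold, so the bound of 3.30-fold does not hold under that scaling.

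Hoxb4 in PL2F8 measured 4.64 and 4.51 at day 0, 4.65 and 4.46 at day 2, 5.34 and 5.02 at day 4, 6.19 and 6.01 at day 6 and 4.26 at day 8. It was undetected at days 0 and 2 and detected on all 4 arrays of days 4 and 6, at least 1.38-fold higher at day 4 (adjusted p = 0.012) and at least 2.60-fold higher at day 6 (1.52 ± 0.18, adjusted p = 6.4e-06). With median scaling the changes were 0.61 and 0.66, and the second is less than 2-fold and below the bound of 2.60-fold. Hoxb7, a central gene, measured 5.20 and 5.43 at day 0, 5.25 and 5.0 at day 2, 5.79 and 5.74 at day 4, 6.76 and 6.64 at day 6 and 6.09 at day 8 in PL2F8. Hoxb7 in AB2.2 measured 5.06 and 4.93 at day 0, 5.04 and 5.20 at day 2, 4.78 and 4.46 at day 4, 4.76 and 4.82 at day 6 and 5.59 at day 8. With quantile normalization the 4 PL2F8 arrays of days 4 and 6 lay above every AB2.2 array. The order differed for the deposited signal over each array's detection limit. On that measure Hoxb7 read 1.538 on the AB2.2 array of day 8. In PL2F8 it read 1.5267 and 1.4717 at day 4 and 1.496 and 1.3799 at day 6. With quantile normalization Hoxb7 in PL2F8 rose by 0.45 ± 0.12 at day 4 (adjusted p = 0.009) and by 1.38 ± 0.12 at day 6 (adjusted p = 6.8e-07). With median scaling the Hoxb7 changes were 0.27 and 0.12, with no call, which is 0.51 and 1.21 above the median gene. Its other probe was detected on 7 arrays and also read higher at PL2F8 day 6, at 6.19 and 6.43 against 4.63 and 4.74 at day 0. The day 4 calls of Hoxb4 ended without day 0 array 2 (0.54) or day 4 array 1 (0.45), and of Hoxb7 without day 0 array 1 (0.33) or day 4 array 1 (0.43). In all, 3 members were higher and 2 lower at PL2F8 day 4 (51.1% of all genes called, 26.4% higher and 24.7% lower), and 2 and 7 with median scaling (13.9% of all genes higher and 45.4% lower).

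At PL2F8 day 6, 11 members were higher and 1, Hoxc6, lower, where 66.2% of all genes were called (31.1% higher and 35% lower), and with median scaling 6 were higher and 7 lower (6.64% of all genes higher and 70% lower). With quantile normalization 5 of the 11 rose at least 2-fold (11.6% of all genes), namely Hoxd4, Hoxb4, Hoxb7, Hoxa13 and Hoxb2, and with median scaling 0 did (1.76% of all genes). Hoxd4, Hoxb4, Hoxb5, Hoxb6, Hoxd10 and Hoxd13 were the 6 higher under both scalings. Under median scaling Hoxb2 was 1.33, Hoxb7 1.21, Hoxa13 1.21 and Hoxa5 1.06 above the median gene, which moved by -1.08. Hoxc6, called lower under both scalings, was 0.59 above it. Hoxb5 in PL2F8 measured 4.52 and 4.54 at day 0, 4.87 and 4.83 at day 2, 4.81 and 4.66 at day 4, 5.73 and 5.06 at day 6 and 4.28 at day 8. Under quantile normalization it was at least 1.60-fold higher at day 6 (adjusted p = 0.00078, limma), and its change under median scaling was 0.37, below that bound. Hoxb2 in PL2F8 measured 4.79 and 4.77 at day 0, 4.94 and 4.47 at day 2, 5.19 and 4.69 at day 4, 5.64 and 5.96 at day 6 and 7.68 at day 8, a rise at day 6 of 1.02 ± 0.20 (adjusted p = 0.00064) that was 0.24 with median scaling, not called. Hoxb6 was not detected on either side of its call and gets no fold. Hoxd9 was detected on 1 of the 2 day 6 arrays, and its call ended without that array (0.36) or without PL2F8 day 0 array 2 (0.61). Hoxb6 lost its call without day 0 array 2 (0.24) or day 6 array 2 (0.20).

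Hoxa13 and Hoxd13, of the far posterior end, were also called there. Hoxa13, which patterns limbs and the urogenital tract, measured 5.16 and 5.14 at day 0, 4.92 and 4.77 at day 2, 5.09 and 4.65 at day 4, 6.67 and 6.10 at day 6 and 8.80 at day 8 in PL2F8. Hoxa13 in AB2.2 measured 5.43 and 5.24 at day 0, 5.11 and 5.39 at day 2, 5.15 and 5.25 at day 4, 5.09 and 5.10 at day 6 and 5.13 at day 8, with no call at any day. It was detected on 17 of 18 arrays, from day 0 on, and rose by 1.23 ± 0.18 at PL2F8 day 6 (adjusted p = 4.3e-05, limma). With median scaling that change was 0.13, not called and 1.21 above the median gene. The deposited signal went from 72.1 and 73.4 to 65.4 and 56.2. Of the other 2 Hoxa13 probes, 1 was detected on 2 arrays and 1 on none, and at PL2F8 day 6 they read 4.26 to 4.50. Hoxd13, a limb gene, measured 4.56 and 4.30 at day 0, 4.40 and 4.59 at day 2, 4.38 and 4.65 at day 4, 5.14 and 5.45 at day 6 and 7.32 at day 8 in PL2F8. Hoxd13 in AB2.2 measured 4.55 and 4.73 at day 0, 4.59 and 4.33 at day 2, 4.30 and 4.47 at day 4, 4.39 and 4.40 at day 6 and 4.60 at day 8. Hoxd13 was detected on the 3 PL2F8 arrays of days 6 and 8 alone. With quantile normalization it was at least 1.49-fold higher at PL2F8 day 6 (adjusted p = 0.00015, limma), and its change was 0.43 under median scaling, below that bound. As it passed the filter through these arrays alone, that p-value is a description and no separate support. Hoxa5 in PL2F8 measured 4.74 and 4.79 at day 0, 4.36 and 4.48 at day 2, 4.71 and 4.99 at day 4, 5.11 and 5.22 at day 6 and 5.34 at day 8. Hoxa5 in AB2.2 measured 4.48 and 4.58 at day 0, 4.38 and 4.27 at day 2, 4.40 and 4.42 at day 4, 4.42 and 4.28 at day 6 and 4.37 at day 8, undetected on all 9 arrays. Its PL2F8 day 6 change was 0.40 (adjusted p = 0.0031), and -0.025 with median scaling.

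**Figure D4:**
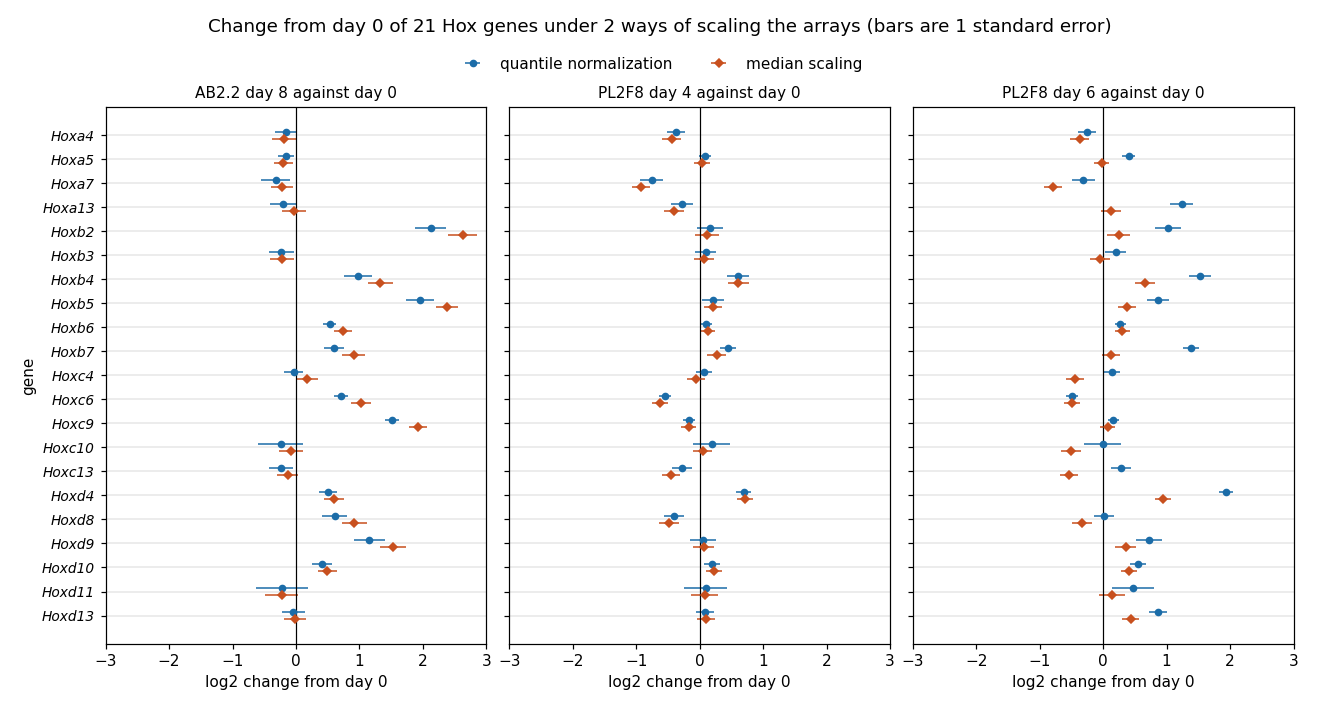
Change from day 0 (log2, horizontal axis) of 21 of the 22 tested Hox genes (vertical axis) at AB2.2 day 8, PL2F8 day 4 and PL2F8 day 6, with quantile normalization (circles) and median scaling (diamonds), and bars of 1 standard error. Median scaling widens the 11 called AB2.2 rises, with Hoxb2 at 2.63 in place of 2.12, while at PL2F8 day 6 median scaling lowers most of them, with Hoxd4 at 0.95 and Hoxb7 at 0.12.

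The PL2F8 array of day 8 allows little. Of the 14 members called there (11 higher and 3 lower, 72.8% of all genes called, 31.7% higher and 41.1% lower), 7 were not detected on the brighter side. Only Hoxa13, Hoxb2, Hoxc4 and Hoxd13 were detected, with deposited signals of 55.4, 45.6, 44.7 and 44.2 where the limit was 42.9. The lowest detected level on that array was 6.89 after normalization, against 4.68 to 5.02 on the other 17. With median scaling 2 members were higher and 8 lower (0.931% of all genes higher and 74.8% lower). Hoxd13, the 1 detected member not detected at day 0, was at least 6.09-fold higher with quantile normalization and 0.41 higher on the log2 scale with median scaling. Hoxc4 was 2.32 ± 0.15 higher under the first and fell by 0.42 under the second.

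At PL2F8 day 6, 5 of 6 Hoxb, 4 of 6 Hoxd, 2 of 5 Hoxa and 0 of 5 Hoxc members were higher, with median changes of 0.94, 0.64, 0.11 and 0.14, against -0.03 for all genes. By position, 3 of 7 anterior, 4 of 7 central and 4 of 8 posterior members were higher, with medians of 0.20, 0.27 and 0.51. With median scaling the members higher at day 6 were 3 Hoxb, 3 Hoxd, 0 Hoxa and 0 Hoxc, and the members lower were 3 Hoxa, 4 Hoxc, 0 Hoxb and 0 Hoxd, with medians of 0.27 for Hoxb, 0.38 for Hoxd, -0.37 for Hoxa and -0.50 for Hoxc, against -1.08 for all genes. By position the higher members under median scaling were 2 anterior, 2 central and 2 posterior, and the medians were -0.05, -0.03 and 0.13. With quantile normalization, at day 4 the 3 higher members were 2 of Hoxb and 1 of Hoxd, 2 of them anterior and 1 central. At day 2 the falls in PL2F8 were 4 of 5 Hoxa, 2 of 5 Hoxc, 1 of 6 Hoxd and 0 of 6 Hoxb, and in AB2.2 they were 2, 3, 1 and 1. With median scaling the day 2 falls were 5 Hoxa, 2 Hoxc, 1 Hoxd and 0 Hoxb in PL2F8, and 2, 2, 1 and 1 in AB2.2. With quantile normalization, by position 2 of 7 anterior, 4 of 7 central and 1 of 8 posterior members fell at day 2 in each line. Whether clusters or positions differ from one another was not tested. The members of a set share a locus and were read on the same arrays.

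At day 0, 1 of the 22 tested members was called between the lines. It was Hoxb6, lower in PL2F8 (-0.43 ± 0.09, adjusted p = 0.0026, limma), with 27.4% of all genes called, and it was detected on 1 of the 4 arrays. Hoxb6 passed the filter through AB2.2 arrays alone, so that p-value is a description and no separate support. With median scaling 4 were higher in PL2F8, among them Hoxa7, Hoxb7 and Hoxc13, and 1 lower (21.6% of all genes higher and 7.1% lower). The change over days differed between lines at some day for 20 of the 22 members (moderated F test), where 80.6% of all genes were called. The count was 10 without the PL2F8 array of day 8 and 6 without its dim arrays of days 6 and 8. Day by day, with quantile normalization, the change from day 0 differed for 0 members at day 2 and for 5 at day 4, all more positive in PL2F8. At day 6 it differed for 10, all more positive in PL2F8 under that scaling. Of all genes 10.1%, 29.9% and 55.5% were called on these days, and 14.8% at day 4 and 25.6% at day 6 were more positive in PL2F8. At day 8, with 1 array a line, 14 differed (66.2% of all genes), 7 each way. At day 4 the 5 were Hoxb4, Hoxb6, Hoxb7, Hoxc4 and Hoxd4, and for Hoxd4 the change was 0.71 ± 0.16 larger in PL2F8 (adjusted p = 0.0055). At day 6 the Hoxd4 difference was 2.05 ± 0.16 (adjusted p = 5.6e-07) and the Hoxb7 difference 1.58 ± 0.18 (adjusted p = 9.8e-06), and for Hoxb2 (0.65) and Hoxb5 (0.55) the difference did not pass the threshold. These differences rest in part on levels that were not detected, and those of day 6 on the dim arrays. With median scaling the day 6 change of Hoxb4 was 0.66 in PL2F8 and 0.85 in AB2.2. That of Hoxc4 was -0.44 and -0.14, so for both genes the order of the lines turned. Hoxb7 changed by 0.12 and -0.09, Hoxa13 by 0.13 and -0.04 and Hoxd4 by 0.95 and -0.21. The median gene moved by -1.08 in PL2F8 and by 0.17 in AB2.2 under that scaling. Relative to it Hoxb4 changed by 1.74 and 0.68 and Hoxc4 by 0.64 and -0.31, and on that measure the order did not turn. PL2F8 arrays of day 6 also differed more from each other (standard deviation of the difference 0.333 over genes) than the arrays of the other groups (0.152 to 0.191).

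Among the genes known to open or serve the Hox clusters, several rose in AB2.2 at days 6 and 8. The lists below were chosen with earlier results of these data known, and their counts and changes are with quantile normalization. Of all genes 28.4% were higher and 26.6% lower at AB2.2 day 6, and 31.1% and 35% at PL2F8 day 6. At AB2.2 day 8, 48.5% were called (24.2% higher). Whether the lists differ from these shares was not tested. A list of Cdx, Wnt and FGF genes also held other genes, such as Egr2. Of its 8 measured genes, 4 were higher and 4 lower at AB2.2 day 6. Cdx2, a homeodomain activator of central and posterior Hox genes, was at least 5.95-fold higher at day 6 and at least 8.80-fold at day 8 in AB2.2 (adjusted p = 1e-09 and 2e-09, limma), and in PL2F8 it was not detected at day 6 (0.19, adjusted p = 0.19). Fgf8, the growth factor of the primitive streak and tail bud, was at least 15.8-fold higher at AB2.2 day 6 and at least 2.00-fold at PL2F8 day 6. Wnt3 was at least 1.40-fold higher and Egr2, the hindbrain factor also called Krox20, fell by 1.14 at AB2.2 day 6.

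Of 16 measured retinoic acid pathway genes, 5 were higher and 5 lower at AB2.2 day 6 and 6 and 4 at day 8. Cyp26a1, which degrades retinoic acid and is induced by it, rose by 3.34 ± 0.13 at AB2.2 day 6 and by 1.82 ± 0.13 at PL2F8 day 6. Crabp1, a retinoic acid binding protein, fell by 1.18 in AB2.2 and rose by 0.22 in PL2F8, and the receptor gene Rarg fell by 1.74 and 0.88. The TALE homeodomain cofactors, which bind DNA with Hox proteins, counted 9 measured genes, of which 7 were higher and 1 lower at AB2.2 day 6 and 3 higher and 4 lower at PL2F8 day 6. Meis2 rose by 1.59 in AB2.2 and fell by 0.59 in PL2F8, Pknox2 rose by 1.54 in AB2.2, and was at least 1.65-fold lower in PL2F8, and Meis1 rose by 0.76 in AB2.2 and fell by 0.49 in PL2F8. No test of these line differences is given here.

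Of 25 measured Polycomb and trithorax genes, whose products hold Hox clusters silent or active, 8 were higher and 9 lower at AB2.2 day 6, with a median change of -0.02 (0.0027 for all genes). Mtf2 fell by 1.21, Eed by 1.10 and Rbbp5 by 0.90, and Kmt2b rose by 0.99. At PL2F8 day 6, Mtf2 fell by 0.65, and the Eed change was -0.07 (adjusted p = 0.46). Of 14 measured neighbours of the clusters, 3 were higher and 5 lower at AB2.2 day 6. Evx1, a homeobox gene beside Hoxa13, was 2.65 ± 0.19 higher at AB2.2 day 6 and 2.30 ± 0.23 at day 8, while no Hoxa gene was called higher at those days. Skap2, on the other flank of Hoxa, fell by 1.59 in AB2.2 and by 1.35 in PL2F8 at day 6. Of the dispersed homeobox genes, 2 were measured, and at AB2.2 day 6 Otx2, of the forebrain, rose by 1.61 and Gbx2 fell by 6.08.

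Other cell types changed over the same days. In AB2.2 the summed normalized intensity of 6 visceral endoderm markers went from 2506 and 2629 at day 0 to 24419 and 24703 at day 6 and 29168 at day 8, with 6 of 6 higher, and in PL2F8 from 2156 and 2244 to 2600 and 2804 at day 6, with 4 higher and 1 lower. Mesoderm markers, 6 measured of 7, summed to 35.3 and 38.9 at AB2.2 day 0, 324 and 358 at day 6 and 198 at day 8, and to 30.1 and 32.2 at PL2F8 day 0 and 110 and 134 at day 6. The primitive streak gene T was at least 5.68-fold higher at AB2.2 day 6 and was undetected at PL2F8 day 6. Fibroblast markers at AB2.2 day 8 had 7 higher and 2 lower of 10, with a sum of 3572 against 2328 and 2392 at day 0, and at PL2F8 day 6 5 higher and 2 lower, with 4482 and 4678. Of the ES markers 8 of 8 were lower at AB2.2 day 6 and day 8 and at PL2F8 day 6, among them Pou5f1, which fell by 1.93, 2.30 and 1.12. The part of these cell types in the Hox changes was not tested.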

How the data were processed

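Total RNA of 18 samples was labelled with biotin and read on Illumina mouse bead arrays, per the labels' protocols. The authors deposited a signal per probe (an intensity, not normalized) with a detection p-value, and a value table that is also an intensity and was set per name. No scanner software, slide or normalization step is given in the sources used here. Matching each row of that table to the probes (30496 of 30848 rows within a root mean square distance of 0.01 on the log2 scale, 21629 to 1 probe and 8867 to a mean of up to 14) showed it to be the deposited signal, quantile normalized without background correction. This match also named the probes. Of 45281 probe lines, 445 (0.98%) had shifted fields and were left out, leaving 44836 probes. All 39 Hox rows matched, and 0 columns of other samples were present.

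Values were background corrected by limma 3.58.1 in R 4.3.3 (normexp with negative controls inferred from the detection p-value, offset 16), quantile normalized and put on the log2 scale. Probes detected (p below 0.05) on at least 2 arrays were kept, and the probe with the highest mean stood for its gene, giving 16108 genes from 23847 probes. A model with a mean per group (8 residual degrees of freedom, prior 4.11) gave moderated tests, called at a Benjamini and Hochberg adjusted p under 0.05 over all genes. Where the dimmer side was undetected on all its arrays, a bound ("at least") was taken from the lowest detected level after quantile normalization. It is a bound under that scaling only. Fits were tested on simulated data. Alternatives were median scaling, no background correction, an offset of 50, the authors' value table, other detection filters, the mean over probes, array weights, fits of 1 line, the replicate number as a block, and leaving out arrays. Tables were handled in Python 3.11.15 with pandas 2.3.3. Members and lists were chosen with earlier results of these data known. A member is described by its value on every array where it was detected on both arrays of a group of 2 and called in a comparison. From other lists up to 4 genes with the smallest p at AB2.2 day 6 are named, and Col1a1 and Fbln1 were added after their values were seen. Values of 1 member and of 2 genes of the other lists are not reported here, though they enter the counts. The number of arrays limits the precision.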

Additional observations from a re-analysis of the deposited data

Results flagged for a closer look

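The lines differed in how some Hox genes changed from day 0, by the interaction contrast of the limma fit adjusted over all genes. Values are the change in PL2F8 minus the change in AB2.2 on the log2 scale, with quantile normalization. At day 4 the difference was 0.89 for Hoxb4, 0.46 for Hoxb6, 0.82 for Hoxb7, 0.73 for Hoxc4 and 0.71 for Hoxd4. At day 6 it was 0.58 for Hoxa5, 1.47 for Hoxa13, 0.97 for Hoxb4, 0.62 for Hoxb6, 1.58 for Hoxb7, 0.46 for Hoxc4, 2.05 for Hoxd4, 0.60 for Hoxd10 and 1.11 for Hoxd13. At day 8, with 1 array a line, it was 1.87 for Hoxa4, 0.73 for Hoxa5, 1.10 for Hoxa7, 3.84 for Hoxa13, 2.35 for Hoxc4, 2.45 for Hoxd11 and 2.93 for Hoxd13, and -1.29 for Hoxb4, -2.21 for Hoxb5, -1.23 for Hoxc6, -1.76 for Hoxc9, -0.70 for Hoxd4, -1.27 for Hoxd8 and -1.32 for Hoxd9. The values of days 6 and 8 rest on the dim PL2F8 arrays (mean signals of 137, 135 and 60.1), and at day 8 PL2F8 detected only Hoxa13, Hoxb2, Hoxc4 and Hoxd13. With median scaling the order of the lines turned for some of these genes. At day 6 the changes in PL2F8 and AB2.2 were then 0.66 and 0.85 for Hoxb4 and -0.44 and -0.14 for Hoxc4. At day 8 they were -0.24 and -0.19 for Hoxa4, -0.88 and -0.22 for Hoxa7 and -0.42 and 0.18 for Hoxc4. The other differences listed kept their direction. Relative to the median gene under that scaling, the day 6 values were 1.74 and 0.68 for Hoxb4 and 0.64 and -0.31 for Hoxc4. At day 8 they were 1.81 and -0.26 for Hoxa4, 1.17 and -0.30 for Hoxa7 and 1.62 and 0.10 for Hoxc4. For these the order was that of quantile normalization. On that measure it turned at day 8 for Hoxb4, Hoxc6, Hoxc9, Hoxd4, Hoxd8 and Hoxd9, as with 2.03 and 0.52 for Hoxd4. The part of signal strength in these differences was not tested. No array of a group of 2 could be set against the others for outliers, since groups had fewer than 4 arrays.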

How the results depend on the processing

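Of 64 called Hox changes given one by one, the call and direction held for 64 with the authors' value table, 58 without background correction, 54 with an offset of 50, 63 with the mean over probes, 63 with array weights, 62 without a filter and 48 with median scaling. Median scaling turned 6, Hoxa5 at PL2F8 day 6 (-0.025) and, at PL2F8 day 8, Hoxa4 (-0.24), Hoxa5 (-0.20), Hoxa7 (-0.88), Hoxb7 (-0.82) and Hoxc4 (-0.42). The cause was not tested. A detection filter at p below 0.01 left 13 members to test, of which 4 were called at AB2.2 day 2, 4 at day 4 and 7 at day 8, 4 at PL2F8 day 2, 7 at day 6 and 8 at day 8, 0 between the lines at day 0 (main count 1) and 12 for the interaction. This filter and the omission of the PL2F8 day 8 array alone were chosen after seeing the data. The count at PL2F8 day 4, 5 in the report, was 9 with median scaling, 8 with the authors' value table and 8 without the PL2F8 arrays of days 6 and 8. The 1 call between the lines at day 0 became 5 with median scaling, 2 with no filter, 0 with detection on at least 4 arrays and 2 without those arrays. The interaction count of 20 fell to 6 without them and to 10 without the day 8 array. Leaving out 1 array gave 3 to 9 calls at AB2.2 day 2, 4 to 7 at day 4, 2 to 7 at day 6, 10 to 11 at day 8, 3 to 8 at PL2F8 day 2, 3 to 8 at day 4, 10 to 14 at day 6, 13 to 15 at day 8, 1 to 2 between lines and 18 to 21 for the interaction. Replicate numbers did not pair the arrays (12 correlations of deviations from -0.026 to 0.023, 0 above 0.1). With the replicate block the counts were 7, 8, 5 and 10 for AB2.2 days 2 to 8, 7, 6, 12 and 14 for PL2F8, 1 between lines and 20 for the interaction. Slide as a block was not run, since the headers give none. Signals near background limit most values: 11 of 182 detected Hox values passed 1.5 times the limit.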
